A study of Mus musculus with 2 samples.

Results

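The loci described here are those of 70 mouse genes for histone-modifying enzymes, and the elements are the 58 regions, of 10531 in the deposited list, that were assigned to them. The genes were chosen by symbol: protein-coding genes of the GENCODE vM21 basic annotation whose symbols begin with Kdm, Kmt, Hdac, Sirt, Setd, Prmt or Kat, without the Katna and Katnb genes, which encode katanin subunits. An element belonged to a gene when that gene had the nearest protein-coding transcription start site (TSS) to the midpoint of the element, within 100000 bp. Of the 70 genes, 36 had at least 1 element. The assignment rests on distance alone and is no evidence of regulation, and no expression of these genes was measured.

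The assay was STARR-seq, a reporter assay in which genomic fragments sit in the transcript of a reporter plasmid and an active fragment increases its own transcription. The cells were primary naive CD4 T cells of strain C57BL/6NJ, which received the plasmids as episomes by transient transfection and were kept for 3 days with antibodies to CD3e, CD28, interleukin-4 and interferon-gamma and with interleukin-2. The label of replicate 2 states 0.25 µg/mL anti-CD3e and 1 µg/mL anti-CD28. That of replicate 1 states 2 µg/mL anti-interferon-gamma and 10 ng/mL interleukin-2. Each of these doses is thus seen in the label of 1 replicate only, and the labels leave age and sex unknown. There was 1 group of 2 biological replicates, separate biosamples that share a donor record, and 1 list of elements was made from both. For each element the list gives an effect with its p-value, raw and adjusted, and all effects and p-values below are the authors' own. The effect is taken as log2, with its base and the direction of the contrast not given in the sources used here. A positive effect is likely more reporter RNA than the input predicts. Sequencing depth is unknown, values per replicate were not analysed here, and no spread between replicates can be given. Plasmid elements are read outside their chromosomal setting.

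Histone-modifying enzymes are commonly sorted into writers, which add methyl or acetyl groups to histone tails, and erasers, which remove them. Kmt and Setd genes mostly encode lysine methyltransferases of the SET domain family, Prmt genes arginine methyltransferases and Kat genes lysine acetyltransferases. Kdm genes encode lysine demethylases, and Hdac and Sirt genes encode deacetylases that use zinc or NAD. In CD4 T cells these enzymes take part in the changes of chromatin that accompany activation and the choice of a helper cell fate.

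Positive members lay mostly away from promoters (20 of 26) and negative members mostly at promoters (30 of 32). Sequences of the strongest of each sign are printed as examples, with different letters marked for each sign. The first 3 printed here are the positive elements of largest effect, given as up to 300 central bases, read from the RefSeq GRCm38.p6 genome (the assembly of mm10) on the plus strand. Capitals mark matches, on either strand, to 12 motifs spelled out below. The Kdm1b element lies at chr13:47063163-47063462 in an intron of the gene, with an effect of 2.46 and no motif match. The Setdb1 element lies at chr3:95360388-95360687 upstream of the gene, with an effect of 2.38 and capitals at RUNX and NFY letters. The Hdac9 element lies at chr12:34469426-34469675 in an intron, with an effect of 2.23 and capitals at AP-1 letters.
Kdm1b: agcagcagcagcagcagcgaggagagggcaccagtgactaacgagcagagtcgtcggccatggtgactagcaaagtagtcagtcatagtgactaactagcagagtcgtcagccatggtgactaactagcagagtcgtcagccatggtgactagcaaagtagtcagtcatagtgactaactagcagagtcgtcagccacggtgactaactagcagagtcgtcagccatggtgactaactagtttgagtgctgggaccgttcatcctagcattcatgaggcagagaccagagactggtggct
Setdb1: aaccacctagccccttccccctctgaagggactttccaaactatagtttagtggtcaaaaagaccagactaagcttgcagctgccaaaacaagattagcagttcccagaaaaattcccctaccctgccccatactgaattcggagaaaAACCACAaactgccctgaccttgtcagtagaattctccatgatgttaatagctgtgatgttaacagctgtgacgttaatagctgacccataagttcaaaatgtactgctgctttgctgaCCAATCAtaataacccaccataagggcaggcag
Hdac9: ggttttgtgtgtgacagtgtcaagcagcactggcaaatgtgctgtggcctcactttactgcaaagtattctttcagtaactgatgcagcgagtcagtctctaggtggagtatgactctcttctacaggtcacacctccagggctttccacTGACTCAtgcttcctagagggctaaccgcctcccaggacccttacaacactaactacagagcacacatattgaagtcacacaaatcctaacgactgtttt

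The next 3 are the strongest negative elements whose windows hold no annotated untranslated sequence, again on the plus strand of mm10, with capitals at every CpG. The Kat6a element, chr8:22860151-22860450, had the most negative effect of all members, -3.21, and 21 CpG in the window. The Kmt2d element, chr15:98871526-98871650, is shown whole, with an effect of -2.67 and 24 CpG in 125 bases. The Kmt2a element, chr9:44881301-44881600, had an effect of -2.08 and 32 CpG. Motif letters are not marked in these 3 windows, of which the Kmt2a window holds 1 SP/KLF match. The positive windows above, where CpG are not marked, hold 10 (Kdm1b), 2 (Setdb1) and 3 (Hdac9).
Kat6a: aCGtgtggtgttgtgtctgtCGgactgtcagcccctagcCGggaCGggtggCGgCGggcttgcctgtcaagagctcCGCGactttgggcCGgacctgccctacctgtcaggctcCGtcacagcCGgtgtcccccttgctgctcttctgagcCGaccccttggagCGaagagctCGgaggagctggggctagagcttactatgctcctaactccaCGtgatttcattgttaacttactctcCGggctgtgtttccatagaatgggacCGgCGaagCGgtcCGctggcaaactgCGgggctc
Kmt2d: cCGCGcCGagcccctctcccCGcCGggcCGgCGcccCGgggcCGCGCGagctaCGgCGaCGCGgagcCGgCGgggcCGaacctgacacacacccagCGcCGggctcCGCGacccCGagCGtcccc
Kmt2a: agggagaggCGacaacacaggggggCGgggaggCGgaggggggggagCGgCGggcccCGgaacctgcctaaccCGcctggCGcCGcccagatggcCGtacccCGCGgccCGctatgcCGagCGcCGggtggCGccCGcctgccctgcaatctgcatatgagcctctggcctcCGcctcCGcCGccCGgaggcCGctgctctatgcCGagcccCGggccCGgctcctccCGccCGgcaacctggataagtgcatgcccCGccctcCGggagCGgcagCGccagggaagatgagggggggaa

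A further 3 positive windows, chosen after the values were seen, show motif matches at genes that recur in the results. They are the Hdac4 window with AP-1 letters (chr1:92119363-92119662, effect 1.58), the Kdm2b window with AP-1 and RUNX letters (chr5:122949151-122949450, effect 0.98) and the Kmt2e window with ISRE, ETS and NFAT letters (chr5:23386838-23387137, effect 1.40). The Hdac4 window also holds the CTCF letters.
Hdac4: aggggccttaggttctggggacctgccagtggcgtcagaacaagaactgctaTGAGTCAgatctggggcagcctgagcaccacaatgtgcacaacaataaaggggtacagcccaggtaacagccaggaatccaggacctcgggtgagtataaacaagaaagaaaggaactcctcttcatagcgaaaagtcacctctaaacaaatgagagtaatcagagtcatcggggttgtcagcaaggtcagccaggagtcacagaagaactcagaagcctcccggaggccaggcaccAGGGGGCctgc
Kdm2b: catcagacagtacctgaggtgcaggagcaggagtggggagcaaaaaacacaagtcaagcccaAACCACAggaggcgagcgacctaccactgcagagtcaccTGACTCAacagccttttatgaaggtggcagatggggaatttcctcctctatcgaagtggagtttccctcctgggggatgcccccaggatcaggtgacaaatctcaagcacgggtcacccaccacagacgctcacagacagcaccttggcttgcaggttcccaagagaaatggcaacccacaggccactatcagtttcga
Kmt2e: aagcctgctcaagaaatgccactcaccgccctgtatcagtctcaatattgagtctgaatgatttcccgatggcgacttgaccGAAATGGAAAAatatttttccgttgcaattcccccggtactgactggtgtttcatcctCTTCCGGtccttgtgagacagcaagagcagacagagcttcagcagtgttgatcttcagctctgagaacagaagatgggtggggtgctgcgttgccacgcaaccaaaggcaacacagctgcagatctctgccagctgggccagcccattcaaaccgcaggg

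The Kdm1b window differed from the other 8 printed windows in being internally repetitive. Its longest stretch of letters that recurs within the window ran to 58 bases, and the most frequent 15-base word occurred 4 times. In each of the other windows no 15-base word occurred more than 1 time, and the longest recurring stretch was 7 to 11 bases. The repeated unit of the Kdm1b window holds the letters TGACTAA, which differ from AP-1 letters at 1 base, and the window has 6 matches on either strand. Those letters, looked for after the window had been seen, were in 4 of 26 positive members (15.4%) and in 0 of 32 negative members. The Kdm1b element, which supplied the letters, is by construction 1 of those 4. They were in 11.9% of all assigned positive elements, 2.86% of all assigned negative elements and 2.35% of RefSeq promoters. Repeat masking covered 21.2% of the Kdm1b element, and no other place in the genome matched it over at least 95%.

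Listed elements were found at 36 of 70 enzyme genes (51.4%), against 31.2% of all 21938 protein-coding genes. A positive element was found at 18 of the enzyme genes (25.7%), against 16.0% of protein-coding genes, and a negative element at 24 (34.3%), against 19.7%. Both kinds were found at 6 enzyme genes (8.57%), against 4.49%. The enzyme genes had a median promoter GC content, over 500 bp either side of each TSS, of 60.4%, and all protein-coding genes one of 54.9%. Among the 6999 protein-coding genes whose promoter GC content lay between the quartiles of the enzyme genes, 56.9% and 66.2%, 41.3% had a listed element, 17.2% a positive and 30.0% a negative one. Of the 34 enzyme genes within those quartiles, 16 had an element (47.1%), 8 a positive (23.5%) and 11 a negative one (32.4%). The gap to the background in these shares of genes was thus smaller at like promoter GC content, above all for negative elements. The differences were not tested.

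**Figure D1:**
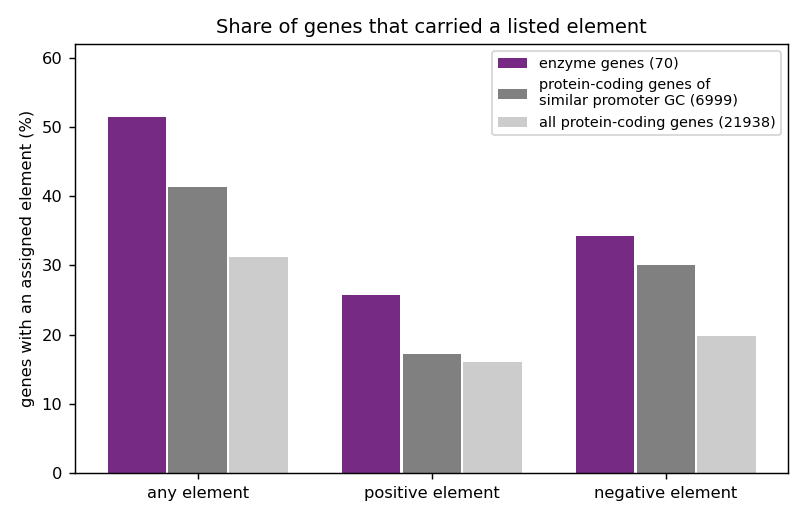
Percent of genes with at least 1 assigned element of any kind, with a positive element and with a negative element, for the 70 enzyme genes, the 6999 protein-coding genes of similar promoter GC content and all 21938 protein-coding genes. Each bar is 1 share without an error bar, and the enzyme genes stand highest in all 3 groups of bars, with the narrowest gap to genes of similar promoter GC content for negative elements (34.3% against 30.0%).

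Enzyme genes also had somewhat more sequence around them in which an element could be assigned, with a median of 56.0 kb per gene against 47.0 kb. Per megabase of that sequence the enzyme loci held 11.5 elements, against 6.17 for all protein-coding genes, with 5.17 against 2.93 positive and 6.37 against 3.25 negative elements. With both sides limited to promoter GC content between the quartiles of the enzyme genes, the values were 14.7 against 8.28. Positive elements then stood at 7.11 against 3.21 and negative ones at 7.61 against 5.07. Per megabase the gap was thus wider for positive and narrower for negative elements at like promoter GC content, which was not tested. The positive elements in that range lay at 8 enzyme genes, with 4 at Hdac4, 3 at Kdm2b and 2 at Hdac7. By share of genes, the gap for positive elements was smaller in that range. The median sequence per gene there was 32.5 kb for enzyme genes and 46.0 kb for the background. The members lay on 20 chromosomes. Of 5 enzyme genes on the sex chromosomes, only Kdm6a had an element.

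The 58 members comprised 26 positive (44.8%) and 32 negative elements, and 47.4% of the 9628 elements assigned to any protein-coding gene were positive. Positive effects ran from 0.70 to 2.46 with a median of 1.19, and negative effects from -3.21 to -0.63 with a median of -1.48. The medians over all assigned elements were 1.33 and -1.44. An absolute effect of at least 2 was reached by 9 members (15.5%), 4 positive and 5 negative, against 21.99% of all assigned elements. The authors' deposited adjusted p-values of the members ran from 3.28e-10 to 0.00943, and 39 members (67.2%) had one of at most 0.001, against 62.8% of assigned elements. No member was among the extremes on the positive side: of 5399 placed positive elements 844 had a larger effect than the Kdm1b element, and of 5122 negative elements 92 had a more negative effect than the Kat6a element.

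**Figure D2:**
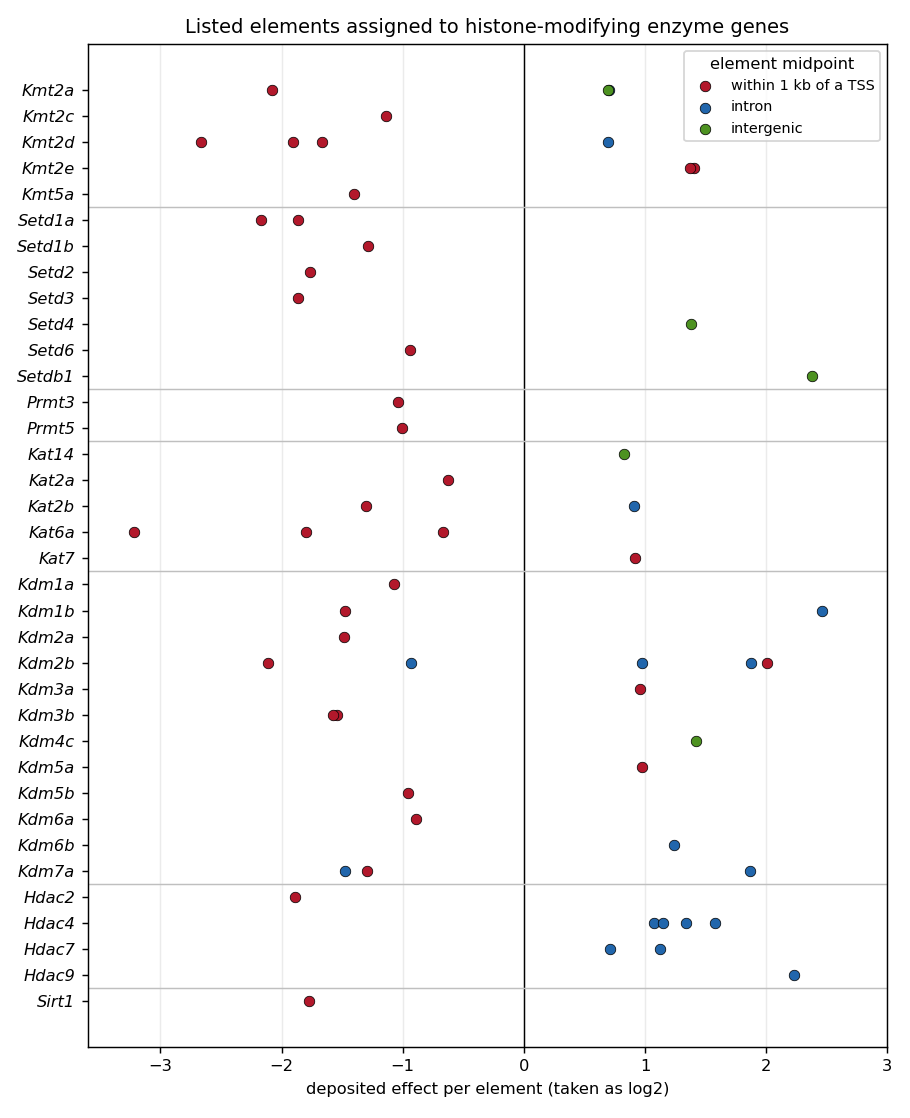
Deposited effect (taken as log2, x axis) of each of the 58 elements, by the gene it was assigned to (y axis), with genes in the order Kmt, Setd, Prmt, Kat, Kdm, Hdac and Sirt and colours for the position of the midpoint. Elements within 1000 bp of a TSS lie mostly left of 0 and elements in introns or between genes mostly right of it, and the 7 positive Hdac elements are all in introns.

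Position separated the signs. A promoter element, one with its midpoint within 1000 bp of a TSS of any gene type, was the class of 36 members (62.1%, against 55.3% of assigned elements). Of these 30 were negative and 6 positive. Of the 22 members elsewhere, 20 were positive and 2 negative; 17 of the 22 were intronic, 5 intergenic and 0 exonic. Promoter elements thus made up 93.75% of the negative and 23.1% of the positive members, and 85.4% and 21.8% over all assigned elements. The median distance to the TSS was 198 bp for negative and 7022.5 bp for positive members. Over 10 kb from the TSS lay 13 members, of which 12 were positive.

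Most promoter elements were at the start site of the enzyme gene itself. Within 1000 bp of a TSS of their own gene lay 34 members, 29 negative and 5 positive, at 27 genes, and the TSS lay inside the element in 20 of them. The exceptions were an element at the start of 4930580E04Rik, a noncoding gene upstream of Kmt2e, and an element at the start of AI480526, a noncoding gene upstream of Setd1b. A start site of another protein-coding gene lay within 1000 bp of the Kdm1b promoter element (Tpmt) and of the Setd3 element (Ccnk), so each of those elements stands at start sites of both genes. Of the 20 positive members away from promoters, 14 lay inside the enzyme gene to which they were assigned.

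The Kmt and Setd genes, grouped by symbol as writers of lysine methylation, had 19 elements, 7 positive and 12 negative, at 12 of 18 genes. All 12 negative elements were promoter elements. The grouping by symbol includes Setd3, which methylates actin. Among the Kmt genes 5 of 8 had an element (62.5%, against 31.2% of all protein-coding genes). Their median promoter GC content, 67.0%, was above the upper quartile of all enzyme genes, 66.2%. Of protein-coding genes between the quartiles of the enzyme genes 41.3% had an element. Kmt2a, which encodes the methyltransferase MLL1 of histone H3, had a promoter element at -2.08 (chromosome 9, 44881251 to 44881650, 400 bp, 74.75% GC, the authors' adjusted p = 1.03e-05). It lay between 2 elements of small positive effect. One, in an intron, had 0.70 (44873726 to 44874150, 42.6% GC, the authors' adjusted p = 0.00474), and the other, an intergenic element of 50 bp that lay 5554 bp upstream, had 0.70 as well (44886826 to 44886875, adjusted p = 0.00659). The sign at this locus therefore changed on both sides of the promoter within 13.15 kb.

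Kmt2d, which encodes a methyltransferase that marks enhancers, had 4 elements within 4.95 kb on chromosome 15. The element at -2.67 (98871526 to 98871650, 125 bp, 84.0% GC, the authors' adjusted p = 3.36e-07) was the most GC-rich of all members. It lay upstream of the start site, 384 bp away, between elements at -1.91 (98871326 to 98871400, 82.7% GC, the authors' adjusted p = 8.33e-06) and -1.66 (98871726 to 98872400, 68.4% GC, adjusted p = 0.000375). The midpoint of the element at -1.66 was nearer the start of the noncoding gene Gm49437 (550 bp) than that of Kmt2d (859 bp). Gaps of 125 bp and 75 bp separated these 3 listed elements, so they cover a nearly continuous stretch of negative effect. The intronic element (98867451 to 98867625, 49.7% GC) had an effect of 0.70 with the authors' adjusted p at 0.00773.

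Kmt2e, which encodes a SET domain protein with a PHD finger, was the Kmt gene with 2 positive elements and no negative one. One of them spanned 1750 bp just upstream of the TSS, the widest of all members, with an effect of 1.38 at 63.8% GC (chromosome 5, 23432676 to 23434425, the authors' adjusted p = 1.67e-05). The noncoding gene 5031425E22Rik starts 214 bp from its midpoint and Kmt2e 891 bp from it. The other, printed above in part, lay 47453 bp upstream of the Kmt2e start with an effect of 1.40 (23386601 to 23387375, 47.1% GC, the authors' adjusted p = 0.000234). Kmt2c, a paralog of Kmt2d, had a promoter element with an effect of -1.14. Its midpoint lay 780 bp from the Kmt2c start and 458 bp from that of the noncoding gene 4831440E17Rik. Kmt5a, which methylates histone H4, had a promoter effect of -1.40. Kmt2b, Kmt5b and Kmt5c had no listed element.

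Of the Setd genes 7 of 10 had an element (70%, against 31.2% of all protein-coding genes), 6 elements being negative and 2 positive. The background share at similar promoter GC content was 41.3%, and the Setd genes had a median promoter GC content of 63.0%. Setd1a, which encodes a histone H3 methyltransferase of the COMPASS complexes, had negative effects of -2.17 (chromosome 7, 127776551 to 127777525, 65.2% GC, the authors' adjusted p = 1.83e-06) and -1.87 in adjacent elements 25 bp apart. The other Setd genes with a negative element at their own start were Setd3, which methylates actin (-1.86), Setd2, which trimethylates histone H3 in gene bodies (-1.76), and Setd6 (-0.94). The Setd1b element (-1.29) lay 3718 bp from the Setd1b TSS, at the start of AI480526. The positive elements were both intergenic. That of Setdb1, whose product methylates histone H3 and silences endogenous retroviruses, had an effect of 2.38 (chromosome 3, 95360276 to 95360800, 45.3% GC, the authors' adjusted p = 7.03e-09) and lay 3336 bp upstream of the start site. Its bases were masked as repeats to 67.8%, the only member at or above 50%, and its best match elsewhere in the genome covered 77.9% of it. The Setd4 element had an effect of 1.38 at 28953 bp. Setd5, Setd7 and Setdb2 had no listed element.

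Of the Prmt genes 2 of 8 (25%) had an element, a share near the 31.2% of all protein-coding genes, and both elements were negative promoter elements. The effects were -1.01 at Prmt5, which encodes the main enzyme of symmetric arginine dimethylation, and -1.04 at Prmt3, which encodes a ribosomal protein methyltransferase. Prmt1, Prmt2, Prmt6, Prmt7, Prmt8 and Prmt9 had none.

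Among the acetyltransferase genes 5 of 8 had an element (62.5%, against 31.2% of all protein-coding genes), with 3 positive and 5 negative elements. Here too the background share at similar promoter GC content was 41.3%, and the median promoter GC content 60.1%. Kat6a, which encodes the acetyltransferase MOZ, held the 3 negative elements of a promoter stretch of 2050 bp on chromosome 8. The first along the gene had an effect of -1.80 (22858626 to 22859325, 65.3% GC, the authors' adjusted p = 1.48e-05). The next had -0.66 (22859501 to 22859825, 78.2% GC, the authors' adjusted p = 0.00943). The last had -3.21 (22859926 to 22860675, 64.1% GC, the authors' adjusted p = 1.00e-06). The weakest of the 3 lay in the middle, had its midpoint nearest the start site, 114 bp away, and was the most GC-rich. Effects within 1 promoter thus spanned from -3.21 to -0.66, nearly the whole range of negative members, with the weakest at the highest GC content.

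The remaining acetyltransferase effects lay between -1.31 and 0.91. Kat2b, which encodes PCAF, had a negative promoter element (-1.31) and, 2000 bp further on, an intronic positive one (0.91, chromosome 17, 53569751 to 53570075, 51.7% GC, the authors' adjusted p = 0.000568) that matches ISRE letters. Kat2a, which encodes the related enzyme GCN5, had the weakest negative effect of the members, -0.63. Kat7, which encodes HBO1, had a positive promoter element (0.91), and Kat14, a subunit of an acetyltransferase complex, an intergenic element 72451 bp away (0.83). Kat5, Kat6b and Kat8 had no listed element.

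The demethylase genes held 20 of the 58 members, 9 positive and 11 negative, at 12 of 18 genes (66.7%, against 31.2% of all protein-coding genes). Their median promoter GC content was 59.5%, and 41.3% of protein-coding genes of similar promoter GC content had an element. The lysine-specific demethylases of the amine oxidase type differed from each other beyond their promoters. Kdm1a and Kdm1b both had a negative promoter element, -1.07 and -1.48. Kdm1b alone had a second element, the repetitive one at 2.46 (chromosome 13, 47063151 to 47063475, 325 bp, 52.0% GC, the authors' adjusted p = 0.000485), 19814 bp into the gene.

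Kdm2b had 5 elements, a number that 63 of the 21938 protein-coding genes reached or passed (0.287%). Its product binds unmethylated CpG islands and recruits a Polycomb complex. On chromosome 5, along the direction of transcription, the first element lay 852 bp upstream of the TSS with an effect of 2.01 (122990501 to 122990850, 46.9% GC, the authors' adjusted p = 1.66e-09). The next lay in the first part of the gene with 1.87 (122986226 to 122986475, 54.8% GC, the authors' adjusted p = 3.28e-10, the smallest of all members). The region around the 5′ end of the gene thus held positive elements. A pair of intronic elements 2675 bp apart then had opposite signs, -0.93 at 72.3% GC (122952176 to 122952550, the authors' adjusted p = 0.00783) and 0.98 at 55.75% GC (122949101 to 122949500, adjusted p = 6.58e-05). The last, at -2.11 (122900026 to 122900675, 75.85% GC, the authors' adjusted p = 2.52e-07), covered an internal start site 89.5 kb from the 5′ end of the gene. Kdm2a, its paralog, had a negative promoter element alone (-1.49).

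Kdm7a, which encodes a demethylase with a PHD finger, had negative elements at its start, -1.29 (chromosome 6, 39206276 to 39207250, 74.3% GC, the authors' adjusted p = 0.00162), and in an intron 1351 bp from the start, -1.47 (39205126 to 39205750, 57.9% GC, adjusted p = 0.00155). Its positive element, 1.87 (39241426 to 39241975, 48.2% GC, the authors' adjusted p = 4.21e-09), lay 34911 bp upstream within an intron of the gene Gm43479. The intronic elements of Kdm7a and Kdm2b, at -1.47 and -0.93, were the 2 negative members away from promoters.

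In the Kdm3 and Kdm5 groups the promoter elements of paralogs differed in sign. In the Kdm6 pair the difference was between a promoter and an intronic element. Kdm3a had a positive promoter element (0.96), and Kdm3b a pair of negative ones (-1.54 and -1.58). Kdm5a had a positive promoter element (0.98), and Kdm5b, a paralog that removes the same methyl marks of histone H3, a negative one of 50 bp (-0.95). Kdm6a, an X-linked gene, had a negative promoter element (-0.89), and Kdm6b, which encodes the related demethylase JMJD3, a positive intronic one (1.24) at 65.6% GC, the highest GC content of a positive member. These are 1 or 2 elements per gene without replicate values, and the differences between paralogs were not tested. Kdm4c had an intergenic element 11109 bp upstream (1.42), and Kdm4a, Kdm4b, Kdm4d, Kdm5c, Kdm5d and Kdm8 had none.

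The deacetylase genes held 9 members. The Hdac genes had 7 positive elements and 1 negative one at 4 of 11 genes (36.4%, near the 31.2% of all protein-coding genes). All 7 positive elements were in introns of 3 class IIa genes, Hdac4, Hdac7 and Hdac9. Class IIa deacetylases shuttle between nucleus and cytoplasm and repress MEF2 factors. The negative element was the promoter of Hdac2, a class I deacetylase (-1.89). The other class I and class IIb genes and Hdac11, that is Hdac1, Hdac3, Hdac6, Hdac8, Hdac10 and Hdac11, had no listed element, nor had Hdac5, the remaining class IIa gene. Of the 7 Sirt genes only Sirt1, which encodes an NAD-dependent deacetylase, had an element, at its promoter (-1.77), and Sirt2 to Sirt7 had none. Erasers of acyl groups thus had an element at 5 of 18 genes (27.8%), a share near the 31.2% of all protein-coding genes. The demethylase genes had one at 12 of 18, as had the Kmt and Setd genes together. These differences were not tested.

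The 4 Hdac4 elements lay within 80.2 kb on chromosome 1, the nearest 65.1 kb from the 5′ end of the gene, with no listed element at the promoter. From the 5′ end onwards the first had an effect of 1.15 (92130151 to 92130975, 54.3% GC, the authors' adjusted p = 5.12e-06) and the next 1.58 (92119251 to 92119775, 52.4% GC, adjusted p = 2.14e-07). The third had 1.34 (92086951 to 92087275, 50.2% GC, the authors' adjusted p = 4.66e-06) and the last 1.07 (92050776 to 92051375, 46.2% GC, adjusted p = 5.13e-05). All 4 were thus positive and intronic, with GC content falling from the 5′ end onwards. Kmt2d also had 4 elements, and 180 of the 21938 protein-coding genes (0.820%) had as many or more, and Hdac4 had 231.9 kb of sequence nearest to its start sites where Kmt2d had 24.9 kb. The Hdac7 elements, 3275 bp apart in introns on chromosome 15, had effects of 1.12 (97821276 to 97821825, 55.6% GC, the authors' adjusted p = 0.000915) and 0.71 (97825101 to 97825525, 63.1% GC, adjusted p = 0.00584). The Hdac9 element had an effect of 2.23 (chromosome 12, 47.6% GC, the authors' adjusted p = 0.0032), 32243 bp from the nearest TSS. It was the only member with a near-identical copy, 245 of its 250 bases (98.0%) matching the minus strand of chromosome 14 from 53943385 to 53943634, within the antisense gene Gm43647 and 2564 bp from Trdv2-1, a T cell receptor V segment. Reads from these 2 places may not be separable, and which of them gave the effect was not tested. Of all assigned elements 5.04% had such a copy, and of the members 1.72%.

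**Figure D3:**
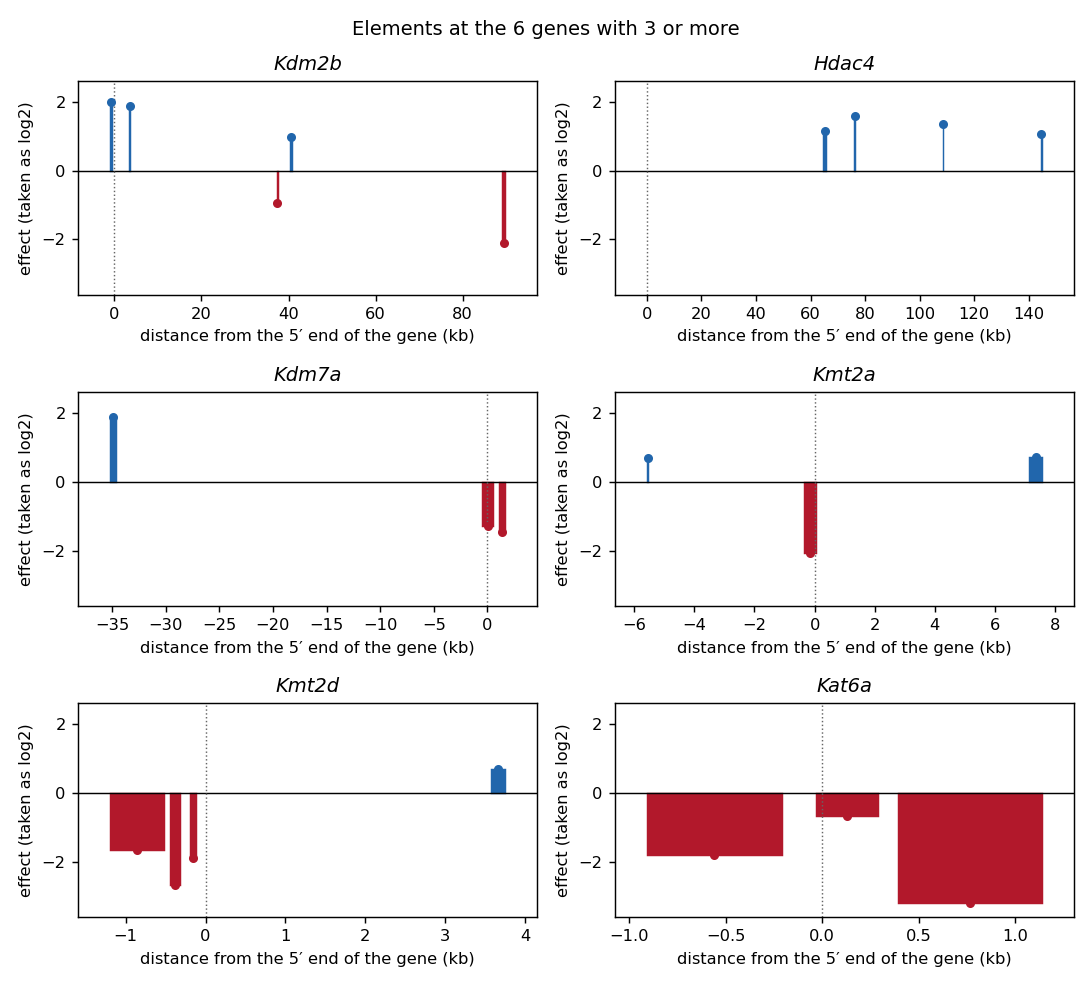
Effects (taken as log2, y axis) of the elements of the 6 genes with at least 3, drawn to width along the gene (x axis, kb from its 5′ end, marked by a dotted line; positive values run in the direction of transcription), blue for positive and red for negative effects. Hdac4 has 4 positive elements far into the gene and Kat6a 3 negative ones at its start, whereas Kdm2b, Kdm7a, Kmt2a and Kmt2d carry both signs; each panel has its own x scale.

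The 6 genes with both signs, Kdm2b, Kdm1b, Kdm7a, Kat2b, Kmt2a and Kmt2d, held 19 members. Of their 9 positive elements 8 lay away from promoters, and of their 10 negative elements 8 were promoter elements. Of the enzyme genes 24 had 1 element, 6 had 2 and 6 had 3 to 5. Elements of 1 gene share their locus and are not replicates of each other.

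Base composition went with the sign in the members as in the list as a whole. Negative members had a median GC content of 70.5% (56.1% to 84.0%) and 96.9 CpG per kb, and positive members one of 52.2% (42.6% to 65.6%) and 20 CpG per kb. The values over all assigned elements were 67.6% and 91.8 CpG per kb against 48.2% and 14.1 CpG per kb. The Spearman correlation of GC content with the effect was -0.78 over the 58 members and -0.76 over the 9628 assigned elements, as a description across elements of 1 list that share libraries and depth. Every one of the 17 members under 55% GC was positive, against 92.1% of assigned elements, and 1 of 26 members at or above 65% GC was positive (3.85%), against 2.94%. Between 55% and 65% GC the members were mixed, 8 of 15 being positive (53.3%), against 36.0%, and among promoter elements in that range 4 of 10, against 29.6%. That range held the positive promoter elements of Kat7 (58.3%), Kdm3a (63.7%), Kdm5a (56.9%) and Kmt2e (63.8%) beside the negative ones of Prmt5 (56.1%), Kat2a (58.9%), Kmt5a (61.0%), Kat6a (64.1%), Kdm6a (64.8%) and Setd1b (64.8%).

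**Figure D4:**
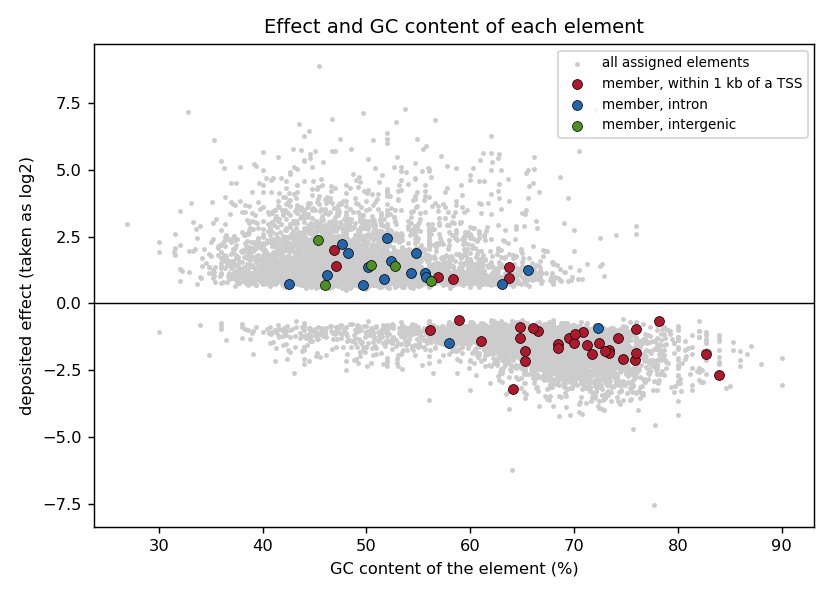
GC content (x axis, %) and deposited effect (y axis, taken as log2) of the 58 members, coloured by position, over all 9628 assigned elements in grey. Members under 55% GC all lie above 0 and those at or above 65% GC lie below 0 except for 1 Kdm6b element at 65.6%, and no member reaches the highest positive effects in grey.

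Widths ran from 50 to 1750 bp, with medians of 512.5 bp for positive and 712.5 bp for negative members (475 and 800 bp over all assigned elements). The 7 members under 200 bp were narrower than the size range of 200 to 400 that the labels give for the library, and 37 members were wider than 400 bp. Among positive members, the 6 promoter elements had a median width of 1012.5 bp, against 425 bp for those elsewhere. Over all listed elements on placed chromosomes these medians were 675 and 425 bp.

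Motif letters were counted on both strands as AP-1 TGAGTCA, CRE TGACGTCA, ISRE GAAANNGAA, ETS CCGGAAG, RUNX TGTGGTT, SP/KLF GGGGCGGGG, NRF1 GCGCATGCG, YY1 AAGATGGCG, NFY CCAATCA, E2F TTTCCCGC, CTCF AGGGGGC and NFAT TTTTCCA. ISRE and NFAT letters can overlap, as they do in the printed Kmt2e window. RefSeq promoters of 300 bases held the AP-1 letters in 5.20%, ISRE in 8.56%, ETS in 8.86%, RUNX in 5.27%, SP/KLF in 11.4%, CTCF in 10.6%, NFAT in 6.73%, NFY in 7.82%, YY1 in 1.40%, NRF1 in 1.75%, CRE in 1.79% and E2F in 1.07%. Members are mostly longer than those promoters, and a longer sequence holds more matches. A match is a description of letters and not evidence of a bound factor.

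AP-1 letters, the site of the Fos and Jun factors induced by T cell activation, were in 8 of 26 positive members (30.8%, all assigned positive elements 29.4%) and 2 of 32 negative members (6.25%, all 8.61%). Apart from Kdm3a, the positive ones lay away from promoters: 2 at Hdac4, 2 at Hdac7 and 1 each at Hdac9, Kdm2b and Setdb1. Thus 5 of the 7 positive Hdac elements held AP-1 letters, and the other 2, both at Hdac4, held RUNX letters. ISRE letters, the element of interferon response factors, were in 3 positive members (11.5%, all 27.2%), at Kat2b, Kdm2b and Kmt2e. RUNX letters were in 5 positive members (19.2%, all 16.5%) and NFAT letters in 4 (15.4%, all 12.1%). None of these differences was tested.

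The ETS letters stood at promoters. Of the 6 positive promoter elements 4 held them, against 21.7% of all assigned positive promoter elements. There were 4 matches at Kdm5a, 2 at Kat7, 1 at Kdm3a and 1 in a Kmt2e element. That element lies at the start of 4930580E04Rik, 47453 bp from the Kmt2e TSS, and the one beside the Kmt2e TSS held no ETS letters. Of the 20 positive elements elsewhere 0 held them, against 3.25% of all such elements. Among negative promoter elements 6 of 30 held them (20%), against 21.0% of all assigned negative promoter elements. SP/KLF letters were in 11 negative members (34.4%, all 37.2%) and in 1 positive member (3.85%, all 5.09%). That 1 was the promoter element of Kdm3a, which held 3 matches. CTCF letters were in 13 negative members (40.6%, all 32.7%) and YY1 letters in 3 (9.38%, all 3.43%). NRF1 letters were in 1 negative member (3.125%, all 3.20%) and E2F letters in 2 (6.25%, all 4.17%). CRE letters were in 0 of the 58 members, and in 4.36% of all assigned positive and 2.47% of all assigned negative elements.

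As a comparison, 50 further chromatin modifiers outside the symbol rule, among them Polycomb proteins, NSD methyltransferases and CREB-binding protein, were all found in the annotation, and 28 (56%) had an element. A negative element was found at 25 of them (50%) and a positive one at 7 (14%), where the enzyme genes had 24 of 70 and 18 of 70. Of all protein-coding genes 31.2% had an element, 19.7% a negative and 16.0% a positive one, so the 14% lay near that share. For protein-coding genes with promoter GC content between the quartiles of the enzyme genes, the shares were 41.3%, 30.0% and 17.2%. The further modifiers had a median promoter GC content of 61.1%. Their 46 elements were 14 positive and 32 negative. The most positive were at Ezh2, the Polycomb methyltransferase (5.01, at 78033 bp, with a near-identical copy elsewhere), Ncoa1, a coactivator (2.50), and Dot1l, a histone H3 methyltransferase (1.47). Among the most negative were elements at Phf2, a demethylase (-2.34), and Ezh2 (-2.33). The enzyme loci thus had the larger share of genes with a positive element (25.7% against 14%) and the smaller share with a negative one (34.3% against 50%), a difference that was not tested.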

How the data were processed

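STARR-seq was measured in 2 biological replicates of 1 group, for which the authors deposited 1 list of elements made from both, on build mm10 per the labels. The authors deposited for each element an effect, taken as log2, and a p-value and adjusted p-value on the linear scale; the last column equalled the width in all 10531 elements. The adjusted p-values match a Benjamini-Hochberg adjustment over an implied 114722 tests and reach 0.01, so regions tested and not listed were not analysed here. Aligner, caller and input library are not given in the sources used here. Read counts were not analysed, so depth is unknown.

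Starts were counted from 1. Annotation was GENCODE vM21 basic, sequence RefSeq GRCm38.p6. The 10 elements on unplaced scaffolds and the 893 with no protein-coding TSS within 100000 bp were not assigned, which left 9628. Copies were matches of at least 95% identity over the element in a minimap2 2.31 search of the genome. The other tools were samtools 1.23.1, pysam 0.24.0, Python 3.11.15, NumPy 2.4.6, pandas 2.3.3, SciPy 1.17.1 and matplotlib 3.10.9. The assignment was tested on simulated data. With 1 list and no replicate values no test between groups was possible, and members are described beside all assigned elements or all protein-coding genes.

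Every enzyme gene with an element may be named. Of the further chromatin modifiers, the 3 most positive and the 3 most negative elements were to be named, and 1 of them is not reported here. Positions are given for the 5 most positive and 5 most negative members, for genes with at least 3 elements and for AP-1 or ISRE matches away from promoters, and for Kmt2e, which was added after its values were seen, and windows for the 3 strongest of each sign outside untranslated sequence. Members, lists and motifs were chosen with earlier results of these data known. Alternatives changed the distance, the start sites used, the p limit, the width, the copies, the promoter window and the background genes.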

Additional observations from a re-analysis of the deposited data

How the results depend on the processing

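Of 158 values recomputed under alternatives for 20 results, 126 kept within their tolerance, 32 moved and 0 reversed in sign. Keeping the 50% of listed elements with the smaller p left 31 members, 15 positive and 16 negative, at 20 genes, 9 with a positive and 12 with a negative element; the promoter share of negative members became 100% and their median effect -1.86. An adjusted p of at most 0.001 left 19 negative members at 14 genes, all at promoters (100%). Those 2 settings keep fewer elements by construction. Assignment within 10 kb left 14 positive members at 11 genes. Taking the nearest TSS of any gene type left 17 positive members. A promoter window of 500 bp put 78.1% of negative members at promoters. The ratio of the share of enzyme genes with an element to that of the background was 1.65, became 1.24 with all 70 enzyme genes against background genes of similar promoter GC content, and 1.14 with the enzyme genes also limited to the 34 in that range, a setting chosen after seeing the data. Among the counts by family, the Kmt elements fell from 11 to 5 with start sites of any gene type and the Hdac elements from 8 to 3 within 10 kb. The cause of the other moves was not tested. No value per replicate was used, so no replicate could be left out and no paired analysis was possible because 1 list was made from both replicates. Depth behind each effect is unknown, and 7 members are narrower than 200 bp.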
